A study of Homo sapiens with 10 samples.

Results

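The genes described here mostly encode factors that start and extend protein synthesis on cytosolic ribosomes. The question was which of these genes MYC occupied and which occupancies were also found for 2 MYC mutants. The set holds 43 genes of 19970 protein-coding genes on chromosomes 1 to 22 and X. It was fixed by gene name as 8 genes of eIF2 and its exchange factor eIF2B, 13 of eIF3, 10 of the eIF4 group, 6 of eEF1 and eEF2, and 6 for eIF1, eIF1A, eIF5, eIF5A, eIF5B and eIF6. EIF4EBP1, EIF4A3 and EEF1E1 were counted by name, and their other roles are given below. A gene was called bound when the summit of a peak, its highest point, lay within 1 kb of either end of the gene.

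The material was U2OS, a human osteosarcoma line whose own MYC gene had been knocked out, and which was given a FLAG-tagged MYC under doxycycline control. Binding was measured by ChIP-Rx, chromatin immunoprecipitation with sequencing in which mouse NIH3T3 cells, here 10% of cells, serve as a reference genome. All libraries came from these knockout cells. Induced cells received 1 µg/mL doxycycline for 24 h and made the mutant 3A, the mutant 7A or wild-type (WT) MYC, with 2 immunoprecipitates (IPs) each. Uninduced cells with WT MYC gave 2 further IPs, and 1 input each came from induced and uninduced WT cells. The labels do not say which residues 3A and 7A change. The 3 peak lists used here hold 845 peaks for 3A, 64 for 7A and 4749 for WT, 1 list per protein. There is thus no spread between replicates for any value below, and no test of 1 protein against another. Read totals, protein levels and peaks of the uninduced IPs and inputs were not analysed here, so a gene missing from the 3A or 7A list is not shown to be free of that protein.

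MYC pairs with MAX and prefers the E-box CACGTG, and genes for ribosomes and translation factors are among those long described as MYC-bound. Initiation begins when eIF2, recharged with GTP by eIF2B, brings the initiator tRNA to a small ribosomal subunit that carries eIF3. The eIF4 proteins recognise the mRNA cap, unwind the leader and recruit that subunit. The eEF1 proteins then deliver each aminoacyl-tRNA, and eEF2 moves the ribosome along the message.

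The sequences below show the MYC E-box where it occurs just upstream of these genes. The RefSeq promoter table (GRCh38.p14), with 250 bases before and 50 after a start, held 35 of the 43 genes. Of those 35, 8 had a CACGTG. Distances from a box to a summit, given further below, are counted from the middle of the box. Each line gives 30 bases of the gene's own strand, 5′ to 3′, with the E-box in capitals and the position of its first base relative to the gene start.
EIF4E, -225 (chr4:98929341-98929370, minus strand): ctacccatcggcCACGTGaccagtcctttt
EIF4E, -72 (chr4:98929188-98929217, minus strand): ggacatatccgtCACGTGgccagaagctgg
EIF4G1, -144 (chr3:184314450-184314479, plus strand): ggctgtggctgtCACGTGacggggcggggg
EIF4G1, -67 (chr3:184314527-184314556, plus strand): ccctgcgccggtCACGTGggggcgccggct
EIF4H, -199 (chr7:74174145-74174174, plus strand): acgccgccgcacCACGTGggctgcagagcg
EIF4B, -22 (chr12:53006422-53006451, plus strand): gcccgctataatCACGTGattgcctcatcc
EIF2B3, -179 (chr1:44986757-44986786, minus strand): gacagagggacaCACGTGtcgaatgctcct
EIF3F, -68 (chr11:7987257-7987286, plus strand): aaagctctagctCACGTGgtgtatattcag
EIF3K, -103 (chr19:38619073-38619102, plus strand): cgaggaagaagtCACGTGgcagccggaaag
EIF4A3, -121 (chr17:80147232-80147261, minus strand): ccagttccctttCACGTGacgaagagtgcc
The first 5 genes were bound in the WT list, and EIF4E and EIF2B3 in the 3A list as well. EIF3F, EIF3K and EIF4A3 were bound in none of the lists, although each has an E-box of the same 6 letters.

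Translation factor genes were bound at 12 of 43 by 3A (27.9%, Wilson 95% interval 16.7 to 42.7%), at 0 by 7A and at 31 by WT (72.1%, 57.3 to 83.3%). Over all 19970 coding genes, silent ones in these cells included, the same rule found 3.51% bound by 3A, 0.125% by 7A and 16.8% by WT. Each of the 12 also had a WT summit, as did 89.9% of all genes bound by 3A. Of the 31 bound by WT, 12 thus had a 3A summit too (38.7%, 23.7 to 56.2%), beside 18.8% of all WT-bound genes. The 7A summit nearest to any of the 43 genes was 417032 bp away, from EIF3L. With 0.125% of all coding genes bound by 7A, no result about the 43 genes is read from its count of 0. These intervals cover counting error over genes only, and genes that share an end are not independent.

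**Figure D1:**
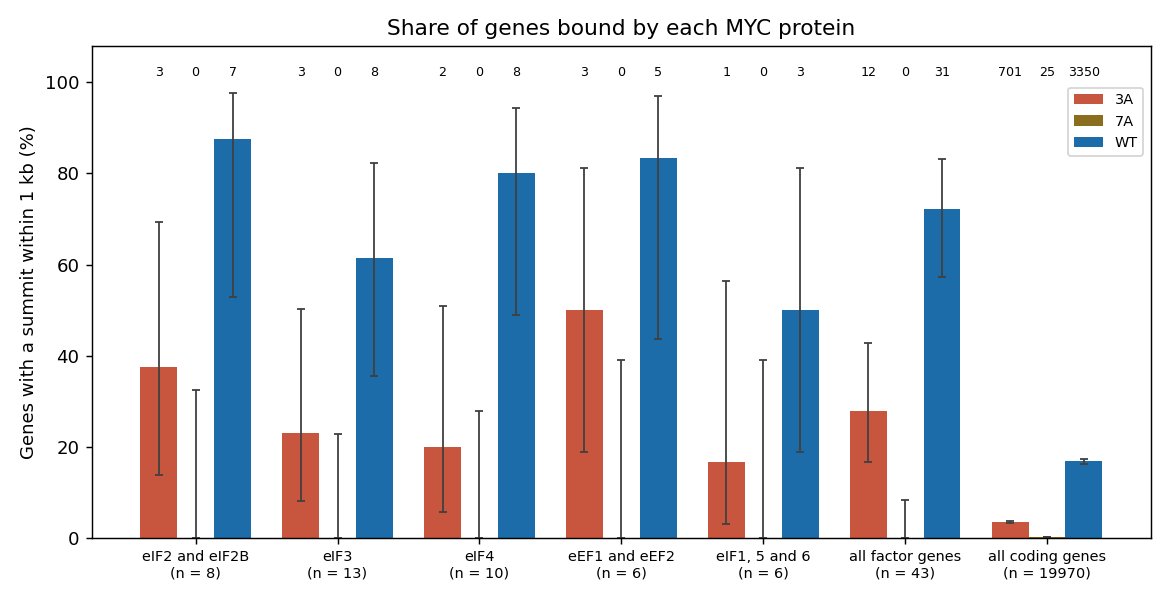
Percentage of genes with a summit within 1 kb of a gene end, for each complex, all 43 factor genes and all 19970 protein-coding genes, in the 3A, 7A and WT lists. Bars start at 0, error lines are Wilson 95% intervals, and the number above each bar counts bound genes. WT bound more genes than 3A in each complex, and 7A bound none of the 43. Over all coding genes 3A bound 3.51%, 7A 0.125% and WT 16.8%.

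Peak strength is given as the authors' fold enrichment, a ratio of the fragments piled up at the summit to the local background. The whole fragment pileup was recovered from fold and p-value, and its exact Poisson 95% interval follows each fold in parentheses. It covers counting error of the pileup only, with the local background held fixed, and folds of different lists rest on different libraries. The 12 peaks at 3A-bound genes had folds of 2.65 to 4.33 on pileups of 44 to 112 fragments. The 31 at WT-bound genes had folds of 3.08 to 12.1 on 35 to 297 fragments. Their median fold was 3.58 in the 3A list and 6.18 in the WT list. Over all bound genes the medians were 3.36 in the 3A list and 5.13 in the WT list. Within the WT list the median translation factor peak ranked at the 68.1th percentile by fold, beside 49.7 for all bound genes.

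**Figure D2:**
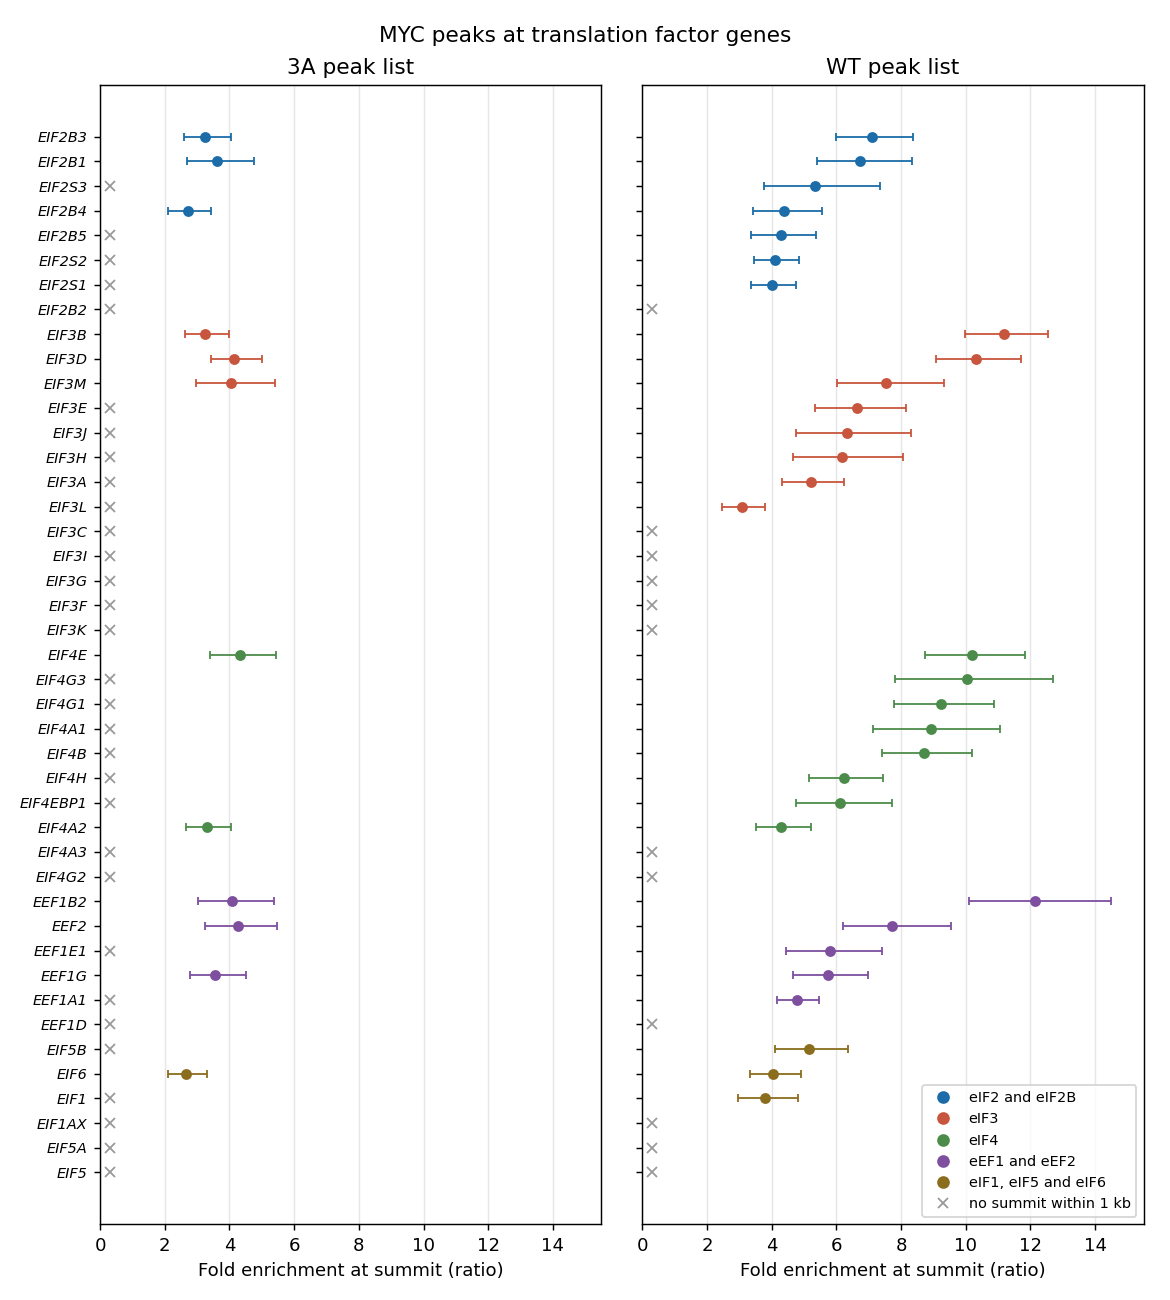
Fold enrichment at the strongest summit within 1 kb of each of the 43 genes, in the 3A list (left) and the WT list (right). Points are the authors' folds, lines are exact Poisson 95% intervals from the recovered pileup, crosses mark genes without such a summit, and colours mark complexes. The 12 genes of the 3A list have folds up to 4.33, and EEF1B2 is highest in the WT list at 12.1.

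The eIF2 and eIF2B genes were bound at 3 of 8 by 3A and at 7 of 8 by WT, and the 3A-bound genes were all eIF2B subunits. EIF2B3, the gamma subunit, had a 3A fold of 3.26 (2.59 to 4.04) and a WT fold of 7.10 (5.98 to 8.37), with the E-box shown above 134 bp from the 3A summit and 117 bp from the WT summit. EIF2B1, the alpha subunit, had 3.61 (2.69 to 4.75) in the 3A list and 6.75 (5.40 to 8.33) in the WT list. EIF2B4, the delta subunit, had 2.71 (2.11 to 3.44) in the 3A list and 4.39 (3.42 to 5.56) in the WT list. EIF2B1 and EIF2B4 each share the bound end with another protein-coding gene, GTF2H3 and SNX17, so these summits cannot be told apart from binding at the neighbour. At EIF2B4 the 3A summit lay 339 bp upstream of the start and the WT summit 9 bp inside it, the widest gap between 3A and WT summits among the 12 genes bound by both.

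All 3 genes of eIF2 itself were bound by WT and none by 3A. EIF2S1, the alpha subunit that stress kinases phosphorylate, had a WT fold of 4.01 (3.37 to 4.75), and EIF2S2, the beta subunit, 4.10 (3.45 to 4.85). Both stood on high local backgrounds of 32.4 fragments, so their pileups of 133 and 136 were among the larger ones despite low folds. ATP6V1D, another protein-coding gene, has an end within 1 kb of the EIF2S1 summit, which cannot be told apart from binding at this neighbour. EIF2S3, the gamma subunit that holds GTP and the tRNA, had 5.33 (3.76 to 7.35) on 35 fragments, the smallest pileup among the WT-bound genes of the set. EIF2B5, the catalytic epsilon subunit, had a WT fold of 4.29 (3.37 to 5.38) 154 bp inside the gene. A 3A peak with a fold of 3.36 lay 1070 bp from the end of EIF2B5, just past the 1 kb limit and not overlapping the WT peak. EIF2B2, the beta subunit, had no 3A summit within 56914 bp and no WT summit within 38967 bp, the distances to the nearest ones.

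The eIF3 genes were bound at 3 of 13 by 3A and at 8 of 13 by WT. The 3A-bound genes were also the leading 3 of the complex in the WT list. EIF3B, part of the eIF3 core, had a 3A fold of 3.25 (2.63 to 3.97) and a WT fold of 11.2 (9.96 to 12.5) on a pileup of 297, the largest of the set (chromosome 7, 2353679 to 2355704). Its 3A and WT summits were 1 bp apart, and a second 3A peak with a fold of 2.49 lay 52 bp from the gene end that SNX8 adjoins. SNX8 also has an end within 1 kb of the strongest EIF3B summit in both lists. EIF3D, which can bind the mRNA cap itself, had a 3A fold of 4.15 (3.43 to 4.99) and a WT fold of 10.3 (9.07 to 11.7), with 112 fragments in 3A, the largest 3A pileup of the set. EIF3M, a subunit of the complex's scaffold, had 4.06 (2.98 to 5.42) in the 3A list and 7.53 (6.02 to 9.32) in the WT list. The 3A and WT intervals of each of these 3 genes did not overlap. This was not counted over all genes bound by both, so it is not read as particular to these 3.

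WT without 3A held EIF3E (fold 6.63), EIF3J (6.34), EIF3H (6.18), EIF3A (5.21) and EIF3L (3.08). EIF3A encodes the largest core subunit, and EIF3J a loosely attached one with WT peaks on both sides of its start. EIF3H shares the bound end with UTP23, a ribosome assembly gene, and EIF3L with ANKRD54. The other 5 eIF3 genes, EIF3C, EIF3F, EIF3G, EIF3I and EIF3K, were bound by none of the 3 proteins. Among them EIF3G came nearest, with a WT peak of fold 10.03 centred 8592 bp away, and EIF3F was farthest at 592451 bp. The nearest WT summits of EIF3I, EIF3C and EIF3K were 42464, 86886 and 212350 bp away. EIF3C has a near-identical copy, EIF3CL, and whether reads shared by the pair were kept is not given in the sources used here, so its missing peak is uncertain. WT-bound eIF3 genes thus ranged over 3.08 to 11.2 in fold, while the 5 unbound ones, 2 of them with an E-box, belong to the same assembled particle.

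The eIF4 genes were bound at 2 of 10 by 3A and at 8 of 10 by WT, and their median WT fold of 8.82 was above the 6.18 of the whole set. EIF4E, the cap-binding protein and a MYC target known for its E-boxes, had a 3A fold of 4.33 (3.40 to 5.45) on 71 fragments and a WT fold of 10.2 (8.75 to 11.8) on 172 fragments, over backgrounds of 15.6 in 3A and 15.9 in WT (WT peak at chromosome 4, 98928031 to 98929451). Its fold was the highest of the set in the 3A list. The E-box nearer to the start lay 241 bp from the 3A summit and 324 bp from the WT summit, since both summits were inside the gene. EIF4A2, a helicase close in sequence to eIF4A1, had a 3A fold of 3.30 (2.66 to 4.04) and a WT fold of 4.30 (3.52 to 5.20), with summits 3 bp apart and overlapping intervals.

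The stretch upstream of EIF4E is shown whole because it holds 2 E-boxes and was bound by both proteins (GRCh38.p14, chr4:98929134-98929383, minus strand, the 250 bases that end just before the start, E-boxes in capitals).
EIF4E upstream: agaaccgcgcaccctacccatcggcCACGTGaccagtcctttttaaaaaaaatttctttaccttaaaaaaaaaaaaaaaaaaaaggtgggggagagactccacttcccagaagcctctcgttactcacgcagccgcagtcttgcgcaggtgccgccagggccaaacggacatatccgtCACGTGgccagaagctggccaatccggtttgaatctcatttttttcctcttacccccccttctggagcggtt

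Among the 6 eIF4 genes bound by WT without 3A were some of the strongest WT peaks of the set. EIF4G3 had a WT fold of 10.04 (7.83 to 12.7) and EIF4G1 of 9.23 (7.78 to 10.9). Both encode scaffolds that join eIF4E to eIF4A and eIF3, and no 3A summit came closer than 73353 bp to EIF4G3 or 180318 bp to EIF4G1. EIF4A1, the main unwinding helicase, had a pair of WT peaks, with folds of 8.93 (7.14 to 11.0) at 968 bp inside the start and 8.51 (6.86 to 10.4) at 275 bp before it. EIF4B had 8.71 (7.40 to 10.2) and EIF4H 6.22 (5.16 to 7.44), both stimulating eIF4A. The EIF4H summit lay inside its E-box, while the EIF4B summit was 655 bp from the box at -22. EIF4EBP1, the repressor that holds eIF4E away from eIF4G, had 6.10 (4.75 to 7.72). EIF4A3, a part of the exon junction complex, and EIF4G2, an eIF4G relative without the eIF4E site, were unbound in all 3 lists, with WT summits no nearer than 32685 bp to EIF4A3 and 812188 bp to EIF4G2.

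The eEF1 and eEF2 genes were bound at 3 of 6 by 3A and at 5 of 6 by WT. EEF1B2, the exchange factor that recharges eEF1A, had a 3A fold of 4.08 (3.04 to 5.36) and a WT fold of 12.1 (10.1 to 14.5), the highest WT fold among bound genes of the set (chromosome 2, 206159242 to 206160427). Its summits lay 425 bp inside the gene in the 3A list and 504 bp inside it in the WT list, and NDUFS1, a respiratory complex gene, has an end within 1 kb of both. EEF2, the translocation factor, had 4.26 (3.26 to 5.47) in the 3A list and 7.73 (6.20 to 9.53) in the WT list. These intervals did not overlap, which was not counted over all genes bound by both. EEF1G, a structural subunit of the exchange complex, had 3.55 (2.77 to 4.50) in the 3A list and 5.74 (4.67 to 6.97) in the WT list.

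EEF1A1, which carries aminoacyl-tRNA to the ribosome, and EEF1E1, a scaffold of the multi-synthetase complex, were bound by WT without 3A at folds of 4.78 (4.15 to 5.47) and 5.80 (4.46 to 7.42). EEF1A1 had the highest local background of the WT-bound genes, 42.5 fragments, under a pileup of 207. EEF1D, another exchange subunit, had its nearest WT summit 231743 bp away.

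EEF1B2 is shown as the counterpart of EIF4E, because it had the highest WT fold among bound genes and none of the boxes searched in its promoter bases. The 250 bases that end just before the start are given (GRCh38.p14, chr2:206159359-206159608, plus strand), all in lower case since no box was found. The EEF1B2 summits lay farther inside the gene than the searched bases, at 425 bp in the 3A list and 504 bp in the WT list. The sequence at these summits was not searched for boxes.
EEF1B2 upstream: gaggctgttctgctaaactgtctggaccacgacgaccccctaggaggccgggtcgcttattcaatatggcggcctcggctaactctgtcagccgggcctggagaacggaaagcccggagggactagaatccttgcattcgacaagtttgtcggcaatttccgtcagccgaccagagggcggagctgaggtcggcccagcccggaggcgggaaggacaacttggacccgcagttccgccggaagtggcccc

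Of the remaining 6 genes 3A bound 1 and WT bound 3. EIF6, which keeps the large subunit from joining too early, had a 3A fold of 2.65 (2.10 to 3.29) and a WT fold of 4.05 (3.32 to 4.91), the lowest fold among the 12 shared genes in both lists. EIF5B, the subunit-joining GTPase, had a WT fold of 5.14 (4.10 to 6.37), and EIF1, which guards start-codon choice, 3.80 (2.97 to 4.80). TXNDC9 has an end within 1 kb of the EIF5B summit, and FAM83C within 1 kb of the WT summit of EIF6. Both are protein-coding genes, so these WT summits cannot be told apart from binding at the neighbours. EIF1AX and EIF5, the partner of eIF1 in scanning and the GTPase activator of eIF2, were not bound by any of the proteins. The nearest WT summit was 3337848 bp from EIF1AX and 184183 bp from EIF5.

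EIF5A, the hypusine-bearing factor that helps ribosomes over difficult stretches, fell outside the rule with a stronger WT peak than any bound gene of the set. That peak had a fold of 17.1 (15.0 to 19.3) on 247 fragments and was number 42 by fold among the 4749 WT peaks (chromosome 17, 7307916 to 7308954). Its summit lay 1307 bp inside the gene, just past the limit, while it was within 1 kb of 4 of the 6 starts listed for EIF5A and 67 bp from the nearest. The nearest 3A summit was 862813 bp from the gene. Inside the limit the most distant nearest summits were those of EIF3B (755 bp), EIF1 (681 bp) and EIF4B (635 bp). The EIF3B summit was far only from the end of the gene span, since it lay 14 bp inside the start listed for that gene.

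In fragments rather than folds, the pileup was smaller in the 3A list than in the WT list at all 12 genes bound by both, and the local background was higher in the 3A list at 10 of the 12. These counts were not made over all genes bound by both. The 701 genes bound by 3A had a median pileup of 70 over 20.2 in the 3A list. The 630 genes bound by both had medians of 120.5 and 17.4 in the WT list. These sets of genes are not the same. EIF3B had 94 fragments over a background of 28.2 in the 3A list and 297 over 25.6 in the WT list. EIF3D had 112 over 26.2 in 3A and 239 over 22.2 in WT. EEF1B2 had 49 over 11.3 in 3A and 121 over 9.05 in WT. These 3 genes and EIF4E had the widest gaps in pileup. EIF2B3 had 81 over 24.2 in 3A and 140 over 18.8 in WT. EIF2B1 had 49 over 12.8 in 3A and 84 over 11.6 in WT. EIF3M had 44 over 10.1 in 3A and 83 over 10.1 in WT. The pileups of the other 5 differed less. EEF2 had 59 over 13.1 in 3A and 86 over 10.2 in WT. EEF1G had 67 over 18.1 in 3A and 99 over 16.4 in WT. EIF6 had 79 over 29.2 in 3A and 103 over 24.6 in WT. The remaining pair had the closest pileups. EIF4A2 had 92 over 27.2 in 3A and 103 over 23.2 in WT, and EIF2B4 had 66 over 23.7 in 3A and 67 over 14.5 in WT. Pileups scale with the libraries, whose depth was not analysed here, so these values are set side by side without a ratio. The intervals of the 3A and WT folds did not overlap at 10 of the 12 genes, and they overlapped at EIF4A2 and EIF2B4. That count was not made over all 630 genes bound by both, so it is not read as particular to these genes. At EIF6 the intervals were just apart, with a 3A upper limit of 3.29 and a WT lower limit of 3.32. Over all bound genes the median fold was 3.36 for the 701 of the 3A list and 5.13 for the 3350 of the WT list. These are unlike sets of genes. The 630 genes bound by both had a median WT fold of 6.84. The deposited −log10 q was 8.31 to 29.8 at the 12 genes in the 3A list and 13.3 to 195 at the 31 genes in the WT list.

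The deposited −log10 q was larger in the WT list at each of the 12 genes. That count was not made over all genes bound by both. The q values rest on the pileups, and so on library depth, which was not analysed here. The −log10 q was 29.8 for EIF3D in 3A and 150 in WT, 19.5 for EIF4E in 3A and 107 in WT, and 17.4 for EIF3B in 3A and 195 in WT. EIF2B3 had 14.8 in 3A and 67.1 in WT, EEF2 had 15.6 in 3A and 44.7 in WT, and EEF1B2 had 12.1 in 3A and 85.5 in WT. EIF4A2 had 17.4 in 3A and 30.1 in WT, EEF1G had 13.8 in 3A and 39.4 in WT, and EIF3M had 10.7 in 3A and 42.3 in WT. The 3 lowest values in 3A belonged to EIF2B1, EIF6 and EIF2B4. EIF2B1 had 10.1 in 3A and 38.9 in WT, EIF6 had 9.70 in 3A and 28.1 in WT, and EIF2B4 had 8.31 in 3A and 20.04 in WT. The summit lay 9 to 755 bp from the nearer gene end at these genes in the 2 lists.

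Among the genes bound by WT under the 1 kb rule, the highest folds without a 3A summit belonged to 4 eIF4 genes, whose fragments differed more than their folds. EIF4B had 155 fragments over a background of 16.9 and a −log10 q of 86.9, with the summit 635 bp from the gene end. EIF4G1 had 142 over 14.5 and a −log10 q of 83.1, with the summit at 270 bp. EIF4A1 had 83 over 8.40 and a −log10 q of 48.3 at the summit with its higher fold, 968 bp inside the start, and 90 over 9.70 and a −log10 q of 50.3 at the other. EIF4G3 had the highest fold of the 4 on the fewest fragments, 68 over 5.87, with a −log10 q of 43.6 and the summit at 153 bp.

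Genes bound by both proteins had a higher median WT fold than those bound by WT without 3A, and the ranges overlapped. The median WT fold was 7.32 for the 12 genes that 3A also bound and 5.80 for the 19 others, beside 6.84 with 3A and 4.93 without it over all genes. In eIF3 the WT folds of the 3A-bound genes (7.53 to 11.2) lay above those of the others (3.08 to 6.63). In eIF4 the 3A-bound pair stood at either end, with a WT fold of 10.2 for EIF4E and 4.30 for EIF4A2, and the 6 genes without 3A had folds of 6.10 to 10.04. With 2 to 6 genes on either side no test of this difference was made.

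**Figure D3:**
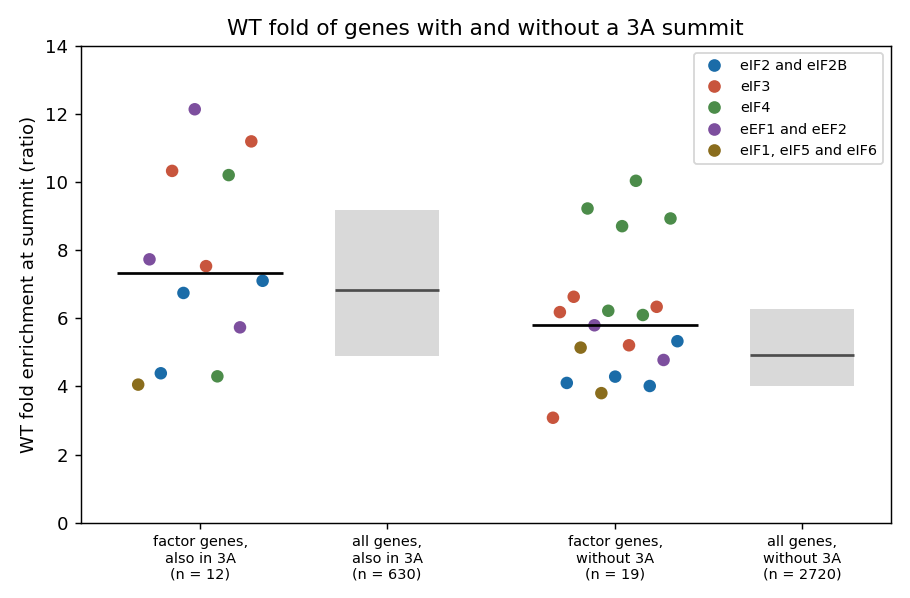
WT fold enrichment of WT-bound factor genes with a 3A summit (12 points) and without one (19 points), with the median as a black line and colours for complexes. Grey boxes give the quartiles and median of all WT-bound genes, 630 with and 2720 without a 3A summit. The 4 highest points without 3A, from 8.71 to 10.04, are all eIF4 genes.

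Seen by strength, 9 of the 22 translation factor genes with a WT fold of at least 5.13, the median of all WT-bound genes, had a 3A summit as well (40.9%), beside 26.7% of all such genes. Below that fold it was 3 of 9 (33.3%), beside 10.9%. Across the 12 shared genes the 3A and WT folds had a Spearman rho of 0.60 and a Pearson r of 0.66. These describe 12 genes that all come from the same single list per protein, and over all 630 shared genes the values were 0.53 and 0.54.

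The summits sat at gene starts, mostly a short way inside. For the 12 3A-bound genes and the 25 WT-bound genes with a listed start, every summit was nearer to the 5′ end than to the 3′ end, beside 96.6% of 586 genes for 3A and 95.5% of 2805 for WT over all bound genes with a listed start. All 3A-bound genes had a listed start. The 3A summits ran from 339 bp before the start to 425 bp inside, with a median of 53 bp inside, and 8 of 12 were inside. The WT summits ran from 377 bp before it to 968 bp inside, with a median of 147 bp inside, and 20 of 25 were inside (80.0%). Over all bound genes with a summit within 1 kb of the listed start the medians were 27.0 bp inside for 3A and 37.0 bp inside for WT, where 54.2% and 56.1% of summits were inside. Where both proteins bound a factor gene, their summits were 1 to 348 bp apart with a median of 32.5 bp, and 10 of 12 pairs were within 100 bp, beside 69.8% of all 630 shared genes.

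**Figure D4:**
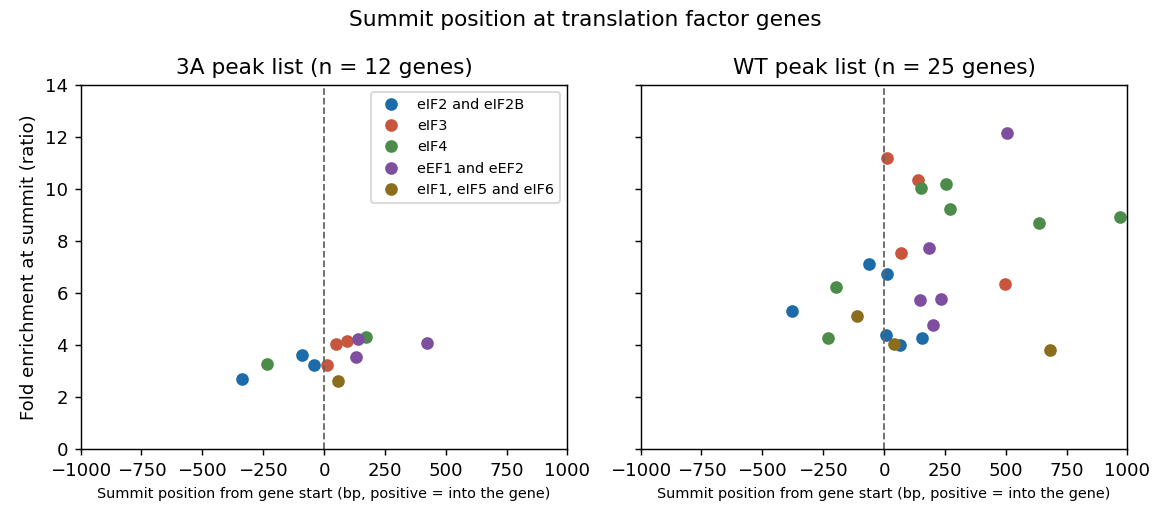
Position of the strongest summit relative to the gene start (x axis, bp, positive inside the gene) against its fold enrichment (y axis, ratio) for bound factor genes with a listed start, 12 in the 3A list (left) and 25 in the WT list (right). Colours mark complexes and the dashed line the start. Most points lie right of it, 8 of 12 for 3A and 20 of 25 for WT.

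The E-box occurred in bound and in unbound factor genes. CACGTG, whose letters read the same on both strands, was found in 2 of 12 promoters of 3A-bound factor genes and in 5 of 25 of WT-bound ones, and in 3 of 10 of those not bound by WT. Over all protein-coding genes it was in 15.2% of promoters of 3A-bound genes and 16.3% of WT-bound ones, in 7.20% of those not bound by WT, and in 8.82% of the 15811 with a listed promoter. Related boxes were searched on both strands as 4 further words. They were CACGCG, then CATGCG, whose copies on the 2 strands can overlap, then CACGAG, and last CATGTG. At least 1 of these was in 6 of 12 promoters of 3A-bound factor genes and 13 of 25 of WT-bound ones, and in 1 of 10 of those not bound by WT. Over all protein-coding genes it was 44.5% of promoters of 3A-bound genes, 46.3% of WT-bound ones, 30.6% of those not bound by WT and 33.4% of all promoters. EIF2B1 had CACGAG on each strand. The copy at -82 was 11 bp from the 3A summit and 93 bp from the WT summit, and the copy at -67 was 26 bp from the 3A summit and 78 bp from the WT summit. They are shown for their place beside both summits.
EIF2B1, -82 (chr12:123633751-123633780, minus strand): cgccaagtgacgCACGAGgtgctgtgactc
EIF2B1, -67 (chr12:123633736-123633765, minus strand): gaggtgctgtgaCTCGTGccagccccctaa
A match is a description of these letters and not a measured site. Only promoter bases were searched, while the WT summits of factor genes had a median of 147 bp inside the start, past those bases. The sequence at such summits was not searched. The median number of CpG per 300 promoter bases was 26.5 for 3A-bound, 27.0 for WT-bound and 28.0 for unbound factor genes, which lay close together. Over all genes the median was 29.0 for WT-bound and 20 for the others. In all these comparisons the factor genes not bound by WT include EIF5A, whose WT summit of fold 17.1 lay 1307 bp from the gene end, just past the limit.

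Other shared features were counted. Another protein-coding gene had an end within 1 kb of the summit at 4 of the 12 3A-bound and 9 of the 31 WT-bound factor genes, beside 33.2% of all WT-bound genes. Small nucleolar RNA genes, which guide RNA modification, lie inside 8 of the 43 genes, among them EIF4A1, EIF4A2, EEF1B2 and EEF2. Of those hosts 3A bound 3 and WT bound 6, and of the 35 others 3A bound 9 and WT bound 25. Over all coding genes 3A bound 3.51% and WT 16.8%. Hosts outside the set were not counted, and no link between hosting and binding is read from these counts.

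The wider translation machinery was taken as 66 genes outside the set, of which 3A bound 7, 7A bound 0 and WT bound 31. Over all coding genes the shares were 3.51% for 3A, 0.125% for 7A and 16.8% for WT. Enzymes that make the hypusine of eIF5A and the diphthamide of eEF2 were bound at 2 of 9 by 3A and 6 of 9 by WT, led by DPH5 with a fold of 4.17 in the 3A list and 10.5 in the WT list. DPH1 (10.02) and DPH7 (7.15) followed in the WT list. Other elongation genes were bound at 2 of 7 by 3A and 4 of 7 by WT. Among them EEF1AKMT3, an eEF1A methyltransferase, had 5.06 in the 3A list and 13.5 in the WT list, and EEF2K, the kinase that inhibits eEF2, 10.3 in the WT list alone.

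Other initiation factors and regulators were bound at 2 of 18 by 3A and 10 of 18 by WT, led by the poly(A)-binding protein gene PABPC1 (9.25), PDCD4, an eIF4A inhibitor (5.69), and EIF5A2 (5.12), none of them in the 3A list. Termination and recycling factors were bound at 1 of 6 by 3A and 2 of 6 by WT, with ABCE1, the recycling ATPase, at 3.57 in the 3A list and 8.40 in the WT list, and ETF1, the release factor, at 4.12 in the WT list. Mitochondrial translation factors were bound at 0 of 9 by 3A and 5 of 9 by WT, with WT folds of 3.64 to 5.83. Genes of mTORC1 and MNK signalling were bound at 0 of 11 by 3A and 3 of 11 by WT (MLST8, TSC2 and LARP1). The kinases and phosphatase subunits of eIF2 were bound at 0 of 6 by 3A and 1 of 6 by WT, PPP1R15B (4.38). That WT share of 16.7% is close to the 16.8% of all coding genes. The lists without a 3A-bound gene hold 6 to 11 genes, and 3A bound 3.51% of all coding genes. No result about these lists is read from their counts of 0.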

How the data were processed

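The authors deposited 1 list of peaks per induced protein. Per the submitters' processing notes, the tools were cutadapt, Bowtie2, SAMtools, Picard and MACS2, with no versions, and the genomes hg38, hg19 and mm10, with no roles. How the 2 IPs, a control and mouse reads entered, and what was done with reads of several matches, is not given in the sources used here. The deposited fold enrichment is a ratio at the summit over local background. The deposited −log10 p and −log10 q are the peak caller's, and the deposited score restates the q and was not used.

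On GRCh38.p14, 60.1% of WT summits lay within 1 kb of a coding gene end, against 5.22 and 5.96% after shifts of 100 kb, so positions were read as hg38, counted from 1. Gene spans, strands and promoters came from RefSeq tables, without chromosome Y, mitochondrial and unplaced genes. Where a gene had several summits in reach, the one with the highest fold was taken. Pileup n and background b were solved from fold = (n + 1)/(b + 1) and a Poisson tail, matching the −log10 p within 0.001 for 845 of 845 3A, 63 of 64 7A and 4748 of 4749 WT peaks. In 1000 simulated peaks 100% of pileups were returned. These peaks were made with the same formulas, so this checks the solving step and not whether deposited peaks follow them.

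No test was run, because each protein has 1 list. The 43 genes, complexes and pathway lists were chosen with earlier results of these data known. All 43 genes are named, with full values for those bound by 3A and the 10 highest WT folds, and for pathway lists up to 3 genes. EIF5A was singled out after its values were seen. Versions were Python 3.11.15, pandas 2.3.3, numpy 2.4.6, scipy 1.17.1, matplotlib 3.10.9 and statsmodels 0.14.6.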

Additional observations from a re-analysis of the deposited data

How the results depend on the processing

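Of the 21 results, 20 were recomputed under windows of 500 bp and 5 kb, −log10 q of at least 5 or 10, any base of the peak within 1 kb, 1 gene per summit, gene starts only and whole gene spans. The count of genes bound by both was also taken by peaks overlapping by at least 1 bp (12) and by summits within 100 bp (10), and the median percentile in the WT list was recomputed only with peaks ranked by −log10 q (73.0 in place of 68.1). Of the 163 values 159 stayed within the set margin, 1.5 times for counts. Many of these could not move, so the tally is not a measure of robustness. The 7A counts were 0 under every setting, with no 7A summit nearer than 417032 bp to any of the genes. The q limits could not change the WT values, since the lowest −log10 q at the WT-bound genes was 13.3. The values outside the margin were counts of complexes. With 1 gene per summit 3A bound 1 of the eIF2 and eIF2B genes in place of 3, and WT bound 5 eIF3 genes in place of 8. With gene starts only WT bound 4 eIF3 genes, since 4 of the 8 had no listed start. At a −log10 q of at least 10, 3A bound 0 of the eIF1, eIF5 and eIF6 genes in place of 1, which was EIF6. For the whole set, 3A bound 10 to 13 genes, 7A bound 0 and WT bound 26 to 32, and WT-bound genes also bound by 3A numbered 9 to 13. Leaving out a replicate could not be done on 1 list per protein. No paired analysis was possible because the lists carry no replicate numbers. Read depth was not analysed here, so the shorter 3A and 7A lists cannot be set against it.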
